A study of Mus musculus with 10 samples.

Results

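Gli2 binding was compared between mouse cells reprogrammed by chemicals, named ciNSLCs, and cells named pri-NPC, the primary neural progenitors of the study, at all 1577 loci of a table that holds 10 chromatin immunoprecipitation libraries. Each cell type had 1 Gli2 library, which leaves the differences without replicates and without a test. The rule for loci took a signal of 100 or more as bound, about the value that every listed locus reached in some library. By it 183 loci were shared, 20 stood at 100 in ciNSLCs alone of the pair, 78 in pri-NPC alone, and 1296 in neither. These groups are defined by the signals compared, so the directions within the groups of 20 and 78 are fixed by the choice.

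The ciNSLCs derive from fibroblasts that the labels call tdMEFs, kept in M9, a serum-free neural medium at low oxygen with N2, B27, basic FGF and the small molecules CHIR99021, LDN193189, A83-01, Hh-Ag1.5 (a Hedgehog pathway agonist), retinoic acid, SMER28, RG108 and Parnate. The same tdMEFs were sampled at days 0, 4 and 8 of M9, and each of the 5 stages also had an Elk1 library. The series' design text writes ciNSLC beside day 0 while the sample labels keep the 2 apart; the labels were followed, and comparisons with day 0 rest on them. The labels do not state which culture, clone or animals the ciNSLCs and pri-NPC came from, the genotype of tdMEFs, or the medium of pri-NPC beyond text shared by every sample. Expression was not measured, so the cell names could not be checked against marker genes. Chromatin was fixed with formaldehyde, sheared, precipitated with a Gli2 antibody (Abcam) or an Elk1 antibody (Epitomics), and sequenced as single reads after PCR.

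Gli2 is a zinc finger transcription factor of the Hedgehog pathway. When a Hedgehog ligand or an agonist frees Smoothened from inhibition by Patched, Gli2 reaches the nucleus as an activator of target genes, and in the developing nervous system this pathway drives the growth and patterning of progenitors. Transfer RNA genes, at which most of the shared loci lay, are transcribed by RNA polymerase III from promoter elements inside the gene, the A box and the B box, and most spliceosomal RNA genes by RNA polymerase II.

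Because so many shared loci lay beside tRNA genes, 4 of these genes are shown, those whose bases were covered by the RefSeq promoter table (GRCm38.p6, the build of mm10), with the match to the B box (GGTTC, any base, A, any 2 bases, CC) in capitals. The genes n-TTagt9 (chr7:35234770-35234843, minus strand), n-TRtcg5 (chr7:79466419-79466491, plus strand) and n-TVcac9 (chr13:23446142-23446214, minus strand) lay in shared loci, and n-TAagc16 (chr13:21222586-21222657, plus strand) in a locus at 100 in ciNSLCs alone. The strand printed is the one that carries the B box.
n-TTagt9: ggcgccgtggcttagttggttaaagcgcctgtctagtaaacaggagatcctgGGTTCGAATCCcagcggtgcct
n-TRtcg5: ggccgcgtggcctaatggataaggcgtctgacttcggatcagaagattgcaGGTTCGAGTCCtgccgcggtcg
n-TVcac9: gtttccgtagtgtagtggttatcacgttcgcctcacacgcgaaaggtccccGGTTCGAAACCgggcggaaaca
n-TAagc16: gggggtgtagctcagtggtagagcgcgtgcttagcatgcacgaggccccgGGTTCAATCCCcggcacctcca
The motif was found on either strand in 0.198% of 32851 windows of 72 promoter bases. The 4 genes carry anticodons for threonine, arginine, valine and alanine. Gli2 signals in ciNSLCs and pri-NPC were 186.8 and 177.3 at n-TTagt9, 280.6 and 207.3 at n-TRtcg5, 200.2 and 131 at n-TVcac9, and 134.9 and 83.4 at n-TAagc16. The counting interval of each of these ratios held 1, including that at n-TAagc16 (ratio 1.62, interval 0.89 to 3.24), so the limit of 100 separated a locus whose signals did not differ beyond counting error.

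The second set of sequences belongs to loci that set pri-NPC apart. These lay across the start of 3 histone genes and of Polq, which encodes the DNA repair polymerase theta, and the bases before each start are shown from the same table, all on the plus strand, with the CCAAT box, the TATA box letters TATAAA and the core letters of an ETS site, CCGGAAG, in capitals where they occur. At H2bc18 the signals of the pair did not differ beyond counting error (1.54-fold lower in ciNSLCs, interval 0.82 to 2.80). The stretches of the 3 histone genes were extended to 100 bases, so each begins before its locus does. The H1f3 locus starts at base 23554985 of chromosome 13, so the CCAAT box printed for H1f3 lies outside the locus or at its edge. The stretches are H1f3 (chr13:23554932-23555031, plus strand), H1f2 (chr13:23738707-23738806, plus strand), H2bc18 (chr3:96269600-96269699, plus strand) and Polq (chr16:37011545-37011785, plus strand).
H1f3: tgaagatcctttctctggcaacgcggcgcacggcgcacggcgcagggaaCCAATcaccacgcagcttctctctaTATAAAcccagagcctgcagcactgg
H1f2: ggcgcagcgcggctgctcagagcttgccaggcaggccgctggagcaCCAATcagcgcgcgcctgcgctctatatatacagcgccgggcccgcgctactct
H2bc18: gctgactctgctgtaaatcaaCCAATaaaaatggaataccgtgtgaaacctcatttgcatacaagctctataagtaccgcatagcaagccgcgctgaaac
Polq: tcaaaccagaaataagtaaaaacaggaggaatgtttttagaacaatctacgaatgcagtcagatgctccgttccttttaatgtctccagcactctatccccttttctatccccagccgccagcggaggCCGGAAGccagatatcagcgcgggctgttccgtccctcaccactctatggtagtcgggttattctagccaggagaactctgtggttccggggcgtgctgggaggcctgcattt
Over 250 bases before the starts of 21262 protein-coding genes and on either strand, the CCAAT box was present in 35.4%, the TATA box letters in 11.6% and the ETS letters in 8.98%. The Gli site letters TGGGTGGTC, searched in the same way, was present in 0.16% of these windows and not in those of H1f3, H1f2, H2bc18 and Polq, which says no more than that these letters are not in them.

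A signal was worth more counted reads in one library than in the other. From the spacing of low signals, 1 counted unit was worth 3 in ciNSLCs and 5.87 in pri-NPC, so a signal of 100 stood for 33.3 units in ciNSLCs and 17 in pri-NPC. Total read depth is unknown. Each interval below is a 95% interval of the ratio computed on units, and it covers nothing but counting error. The median signal over all loci was 15 in ciNSLCs and 19.6 in pri-NPC, and the highest 779.4 and 4586.8. Whether the authors scaled the libraries to each other is not given in the sources used here, and scaling both to the same median moved the median log2 difference of all loci by 0.34, from -0.25 to 0.09.

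The shared loci made up 90.1% of the 203 loci at 100 in ciNSLCs and 70.1% of the 261 in pri-NPC. Of the 183 shared loci, 132 (72.1%) lay within 1 kb of a nuclear tRNA gene, 22 (12.0%) within 1 kb of another small RNA gene, 20 (10.9%) within 50 kb of a protein-coding gene and 9 (4.92%) near none of these. For comparison, tRNA loci were 13.2% of all listed loci. The counting interval held a ratio of 1 at 149 of the 183 shared loci. At 12 it left out 1 with a difference of at least 2-fold, 3 of them tRNA loci that were higher in ciNSLCs, 1 the Rpusd4 locus and 8 loci with no gene assigned, all 9 lower in ciNSLCs. Of all listed loci, 237 (15.0%) exceeded pri-NPC by 2-fold or more in ciNSLCs and 471 (29.9%) fell short by as much, on log2 of the signal plus 1, and with the interval also leaving out 1 these numbers were 23 (1.46%) and 147 (9.32%). Among the 1538 loci that reached 100 in a library outside the pair they were 236 (15.3%) and 453 (29.5%), and 22 (1.43%) and 129 (8.39%) with the interval. Median scaling brought the first pair of counts to 328 and 346, which it does by construction.

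**Figure D1:**
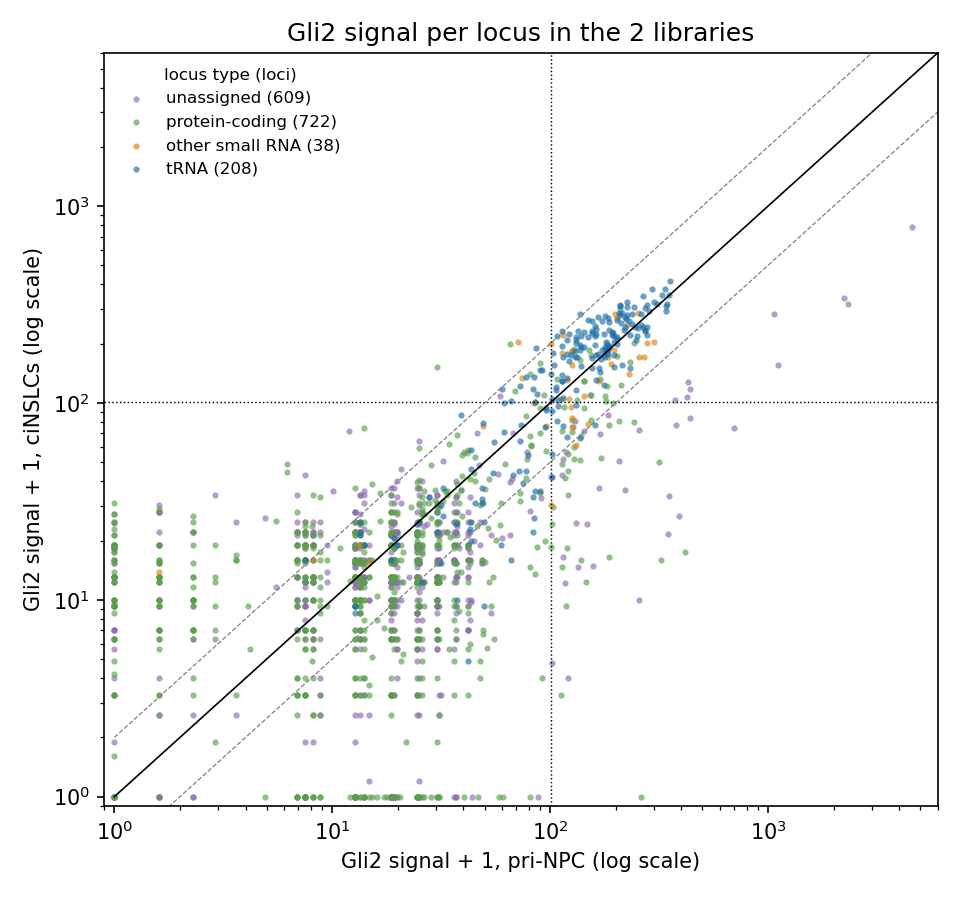
Gli2 signal plus 1 of each of the 1577 loci in pri-NPC (x axis) and ciNSLCs (y axis), both on log scales, coloured by locus type. The solid line marks equal signal, dashed lines 2-fold and dotted lines a signal of 100; the 208 tRNA loci lie along the line of equal signal, and the highest pri-NPC signals, up to 4586.8, lie below it.

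Loci beside tRNA genes carried signals of like size in both libraries. At the 208 loci beside them the median Gli2 signal was 173.9 in ciNSLCs and 135.6 in pri-NPC, and the median log2 difference was 0.12 (0.06 to 0.19, an order-statistic interval over loci, which are not replicates), or 0.50 after median scaling. Of these loci 132 were shared, 10 were at 100 in ciNSLCs alone, 10 in pri-NPC alone and 56 in neither. At least 2-fold differences beyond the interval were found at 5 tRNA loci higher in ciNSLCs (2.40%, against 1.46% of all loci) and 11 lower (5.29%, against 9.32%). The 208 signals ranked alike in the pair, with a Spearman correlation of 0.89 across loci, against 0.39 at the 722 protein-coding loci and 0.26 at the 609 unassigned loci. Signals of the latter types were low. Their medians in ciNSLCs and pri-NPC were 12 and 17.25 at protein-coding loci and 14.3 and 18.3 at unassigned loci. The part of low counts in these lower correlations was not tested. These correlations are descriptions, and the loci share libraries and, at tRNA genes, near-identical copies between which the split of reads is uncertain. None of the 208 tRNA loci reached 100 with Elk1 in any library.

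The highest shared tRNA locus held n-TPcgg3, a proline tRNA gene on chromosome 11 (69040245 to 69042225), with Gli2 signals of 416 in ciNSLCs and 355.3 in pri-NPC (ratio 1.17, interval 0.86 to 1.60). At n-TDgtc16, an aspartate tRNA gene on chromosome 10, the signals were 353.3 and 350.1. At n-TYgta9, a tyrosine tRNA gene on chromosome 5, they were 377 and 334.5. The other 3 of the 6 highest were n-TPtgg8, n-TDgtc14 and n-TRcct1, with 311.1 to 351 in ciNSLCs and 325.3 to 343.6 in pri-NPC. None of the 6 differed beyond the interval.

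At most tRNA loci the signals of both cell types lay below that of day 0 and above those of days 4 and 8. Both were below day 0 at 181 of the 208 loci (87.0%), against 882 of all 1577 (55.9%), and both were above days 4 and 8 at 167 (80.3%), against 499 (31.6%). The libraries as a whole stood in a partly like order. Medians over all loci at days 0, 4 and 8 were 35.8, 15 and 12.8, beside 15 in ciNSLCs, equal to day 4, and 19.6 in pri-NPC. The part of this order in the tRNA counts was not tested. At n-TPcgg3 the signals of days 0, 4 and 8 were 500.4, 255.7 and 224.8. Of the 56 tRNA loci below 100 in both cell types, every one had to reach 100 elsewhere to be listed, so the place below day 0 is partly set by the listing. The pair was compared by amino acid as well. The highest median differences were at tyrosine (6 loci, median log2 difference 0.65), valine (12 loci, 0.52) and histidine genes (7 loci, 0.45), and the lowest at glycine (15 loci, -0.21), aspartate (9 loci, -0.06) and tryptophan genes (4 loci, -0.02); the negative medians lie within the shift of median scaling. The single loci within an amino acid spread more widely than these medians, from -3.10 to 0.72 at glycine and from -1.33 to 1.03 at tyrosine genes.

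**Figure D2:**
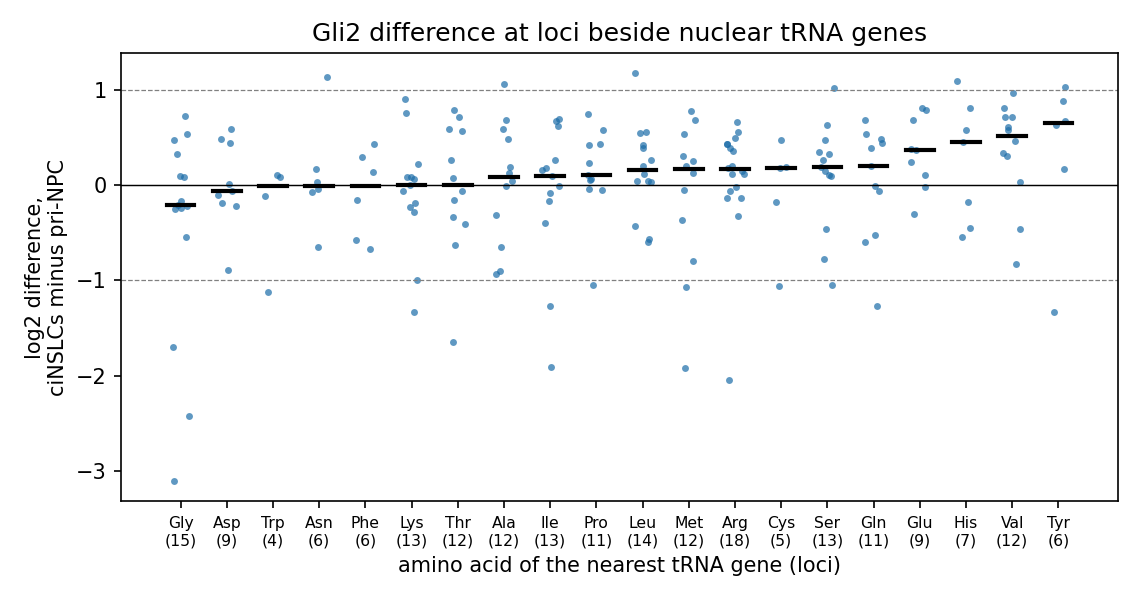
Log2 difference in Gli2 signal plus 1, ciNSLCs minus pri-NPC, at 208 loci beside nuclear tRNA genes, by the amino acid of the nearest gene. Points are loci and bars medians, from -0.21 at glycine to 0.65 at tyrosine; the points of every amino acid fall on both sides of 0.

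The 5 tRNA loci that were higher in ciNSLCs included 1 at 100 in that library alone, n-TNgtt12, an asparagine tRNA gene on chromosome 3 (96497605 to 96498125), with 188.9 in ciNSLCs and 85.4 in pri-NPC (ratio 2.21, interval 1.21 to 4.06). Shared ones were n-TAagc9 (alanine) with 283.4 and 135.6, n-TYgta7 (tyrosine) with 230.1 and 112.1, and n-TScga3 (serine) with 217.5 and 106.9, all close to the 2-fold limit. Of the 11 lower ones, 3 reached 100 in pri-NPC. They were n-TCgca51 (cysteine) with 75.9 in ciNSLCs and 159.1 in pri-NPC, n-TPcgg1 (proline) with 65.3 and 136.3, and n-TItat14 (isoleucine) with 41.3 and 101. The n-TItat14 locus on chromosome 13 (21896665 to 21897185) also holds Mir1983, whose mature microRNA is shown with its seed, bases 2 to 8, in capitals, since its locus reached 100 in pri-NPC and not in ciNSLCs.
mmu-miR-1983: cUCACCUGgagcauguuuucu
The immunoprecipitation cannot tell the tRNA gene from the microRNA gene here.

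Small RNA genes other than tRNAs, 38 loci in all, were also mostly bound in both. The shared 22 included the genes of 7SK, the Y RNAs, the RNA of RNase MRP and the U1, U2, U5 and U11 RNAs of the spliceosomes. The median signals of the 38 were 132 in ciNSLCs and 124.5 in pri-NPC, with a median log2 difference of -0.01 (-0.38 to 0.42) that turned to 0.36 after median scaling. One locus (2.63%, against 1.46% of all loci) was at least 2-fold higher beyond the interval. At least 2-fold lower were 2 (5.26%, against 9.32%).

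Among genes that RNA polymerase III transcribes, Rn7sk, the 7SK RNA that restrains transcription elongation, had 248.8 in ciNSLCs and 224.3 in pri-NPC. Rny1 and Rny3, whose Y RNAs bind the Ro protein, had 270.7 and 202.1, and 179.2 and 112.1. Rmrp, the RNA of the MRP ribonuclease that cleaves precursor ribosomal RNA, had 169.5 and 183.8. The interval held 1 at all 4 of these loci. Among polymerase II genes, Rnu1a1, a U1 RNA of splice site recognition, had 282.7 and 196.9, and Rnu2-10, a U2 RNA, had 201.8 and 278.4. The U5 gene Rnu5g had 182.2 and 125.2. Rnu11, of the minor spliceosome, had 203.2 in ciNSLCs and 299.9 in pri-NPC, a ratio of 0.68 whose interval (0.47 to 1.00) just left out 1. At 6 of 8 loci of U1, U2, U5, U11 and U3 genes both cell types exceeded each of days 0, 4 and 8, as at Rnu11 with 114.6, 127.8 and 98.2 on those days, and both did so at 2 of the 4 polymerase III loci just named, at 9 of the 208 tRNA loci and at 199 of all 1577. These 8 genes were grouped after their values were seen. Gm25541, an RNA gene on chromosome 2 for which no role is given here, had the highest lower signal of the type, with 284.1 and 253.

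The small RNA loci at least 2-fold apart beyond the interval are named here, followed by Rnu3a. Gm26243, annotated as a small nuclear RNA gene on chromosome 10 (79985325 to 79985865), had 203.2 in ciNSLCs and 70.4 in pri-NPC (ratio 2.89, interval 1.56 to 5.88). In the other direction, Gm26316 on chromosome 11 had 29.3 and 100.4 (3.43-fold lower, interval 1.44 to 8.13) and Gm23143 on chromosome 4 had 60 and 130.4 (2.17-fold lower, interval 1.12 to 4.16). Rnu3a, a U3 RNA of ribosomal RNA processing, had 77.5 and 148.6, a 1.92-fold difference whose interval (1.04 to 3.39) left out 1.

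Loci assigned to protein-coding genes were the most numerous type of the table (45.8% of loci) and 10.9% of the shared loci. Of 722 loci assigned to such a gene 20 were shared, 7 were at 100 in ciNSLCs alone and 34 in pri-NPC alone. The median log2 difference of the 722 was -0.28, or 0.03 after median scaling, so its direction depends on that choice. Beyond the interval 10 (1.39%) were at least 2-fold higher and 73 (10.1%) lower, shares near those of all loci, 1.46% and 9.32%. Of the 20 shared loci 8 had also reached 100 with Elk1.

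The Nes locus was the shared one of the neural progenitor list. Nes encodes nestin, the intermediate filament of neural stem cells, and the locus lies inside the gene on chromosome 3 (87974205 to 87974645). Its Gli2 signal was 128.2 in ciNSLCs and 142.8 in pri-NPC, a ratio of 0.90 (interval 0.54 to 1.58), so the pair did not differ beyond counting error. At days 0, 4 and 8 the signals were 19, 7.5 and 12.8, each below both cell types, and its highest Elk1 signal in any library was 15.2. Inka2, an inhibitor of the kinase PAK4, held a shared locus on the same chromosome (105710205 to 105710605) with 122.9 and 211.2 and 47.8, 30.1 and 17.1 on the days. Its ratio was 0.58 (interval 0.36 to 0.94), lower in ciNSLCs beyond counting error and by less than 2-fold.

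Fosb, an immediate-early gene of the AP-1 family, had a shared locus 1091 bp away on chromosome 7 (19301025 to 19301605) with 298.4 and 207.3 (ratio 1.44, interval 0.97 to 2.19), and 341.6 at day 0. The centre of this locus was 8730 bp from the nearest annotated start of Fosb. The long noncoding RNA gene Gm26802 was nearer to the locus, at 232 bp. The locus nearest to Zmat2 overlapped Vaultrc5, a vault RNA gene, and had 201.1 and 241.9. Gm40363 on chromosome 6 had 173.4 and 153.2. None of these differed beyond the interval.

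Among loci at 100 in either library, the largest increases in ciNSLCs were at 2 loci outside genes of proteins. The nearest such gene was Klrb1c, of the C-type lectin receptors of natural killer cells. Over chromosome 6 from 128759805 to 128843625, around Klrb1c, Klrb1b and BC035044, 9 loci ranged from 131.2 to 197.9 in ciNSLCs and from 29.3 to 201.4 in pri-NPC. Of these 5 were shared and 4 were at 100 in ciNSLCs alone. The locus 17580 bp from Klrb1c (128760465 to 128760905) had 152.2 in ciNSLCs and 29.3 in pri-NPC, a ratio of 5.20 (interval 2.09 to 16.7), with 78.8, 75.2 and 51.3 on days 0, 4 and 8. A second (128799205 to 128799665), 10564 bp from Klrb1c, overlapped the long noncoding RNA gene Gm34755. It had 197.9 and 64.5 (ratio 3.07, interval 1.61 to 6.44) and 170.8 at day 0. The neighbouring locus at 128802725 to 128803325, nearest to Klrb1b, ran the other way with 173.2 and 201.4, within the interval. Elk1 signals over the 9 loci were at most 38.3.

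The other loci at 100 in ciNSLCs alone were mostly within counting error. Of the 20, 4 differed by at least 2-fold beyond the interval, both loci just given as nearest to Klrb1c, Gm26243 and n-TNgtt12, and at 15 the interval held 1. The remaining one was another locus nearest to Klrb1c, 9984 bp away (128798625 to 128798985), with 158.9 and 88.7 (ratio 1.79, interval 1.00 to 3.45). Together with n-TAagc9, n-TYgta7 and n-TScga3, these 4 were all 7 loci at 100 in either library that were higher by the rule. The locus near 4930578I06Rik on chromosome 14 had 113.9 and 67.8 (interval 0.83 to 3.40) and at most 15 on the days, and it was 1 of 3 listed through the Gli2 library of ciNSLCs alone. By comparison 29 loci were listed through Gli2 in pri-NPC alone.

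The loci lower in ciNSLCs fell into those bound by both antibodies and those of Gli2 without Elk1. Of the 281 loci at 100 in either Gli2 library, 55 had reached 100 with Elk1 in some library. Gli2 was higher in pri-NPC at 53 of the 55, and at 44 by at least 2-fold beyond the interval, against 9.32% of all loci. Of all loci 1296 were below 100 in both, so these shares are not of like loci. Among the 281, 66 were lower in this way, a count that includes the 44. At 36 of the 55, which were at 100 in pri-NPC alone, the higher signal in pri-NPC is fixed by the limit. Of the 17 that were shared, all were higher in pri-NPC and 9 by at least 2-fold beyond the interval. At the same 55 loci Elk1 was also higher in pri-NPC at 52, with 42 at least 2-fold apart, and 41 were at least 2-fold lower in ciNSLCs with both antibodies. Elk1 was at least 2-fold lower in ciNSLCs at 63.3% of all loci and at 80.4% of the 980 loci at 100 with Elk1, and 1 Elk1 unit in pri-NPC was worth 14.5. The part of this shared difference in the Gli2 result was not tested. Without the loci of both antibodies, the 78 loci at 100 in pri-NPC alone became 42.

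**Figure D3:**
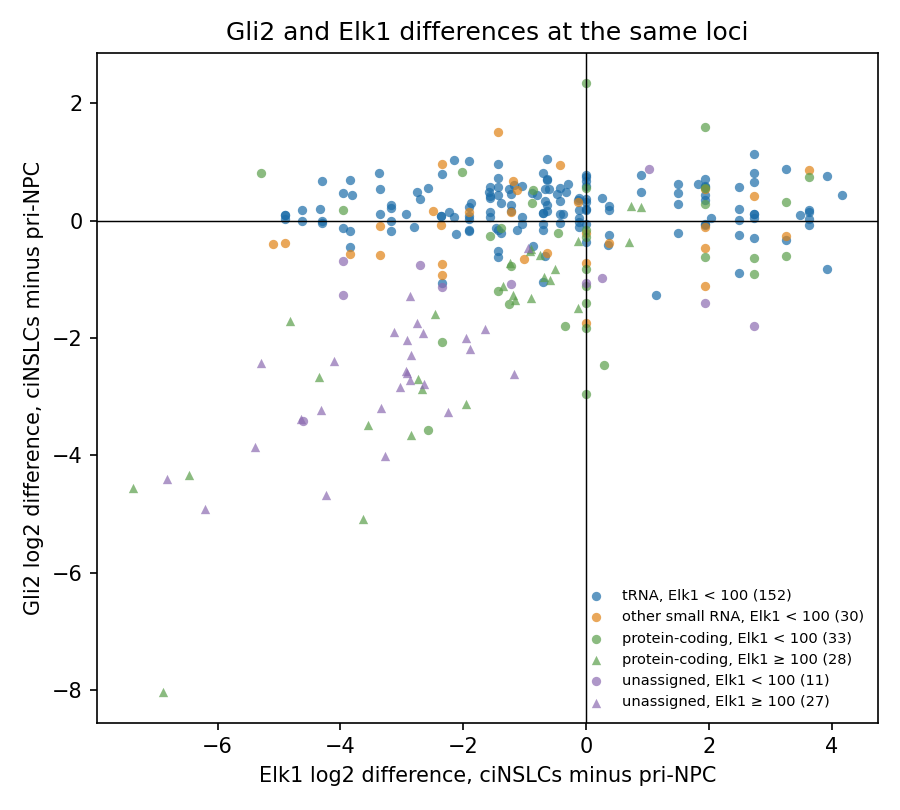
Log2 differences in signal plus 1, ciNSLCs minus pri-NPC, of Elk1 (x axis) and Gli2 (y axis) at the 281 loci at 100 in either Gli2 library. Triangles had an Elk1 signal of 100 or more in some library; 41 of these 55 lie at or below -1 on both axes, while the 152 tRNA loci stay near 0 for Gli2 over a wide range of Elk1 differences of low signals.

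Of the 8 largest decreases that the rule named at loci assigned to a gene, all but 1 near Gm40035 had reached 100 with Elk1. The locus in Aida, which encodes an inhibitor of JNK signalling through axin, had a Gli2 signal of 0 in ciNSLCs and 261.5 in pri-NPC, with a lower bound of the counting interval of 22.9-fold, and Elk1 signals of 4.6 and 665. In Chl1, which encodes a neural cell adhesion molecule, Gli2 signals were 16.6 and 413.1 (24.9-fold lower, interval 9.98 to 64.3) and Elk1 signals 3.5 and 749.7. Near Pak3, a kinase gene of neurons 35101 bp away on chromosome X, they were 15 and 322.5 for Gli2 and 5.6 and 581.9 for Elk1. Kctd16, which encodes an auxiliary subunit of GABA-B receptors, had 2.3 and 110.7, and Fbxw4, an F-box gene, had 15 and 138.1. These 5 loci had each also been above 100 with Gli2 at day 0, between 278.5 at Kctd16 and 1180.7 at Aida. The rule further named 2 loci near Gm40035 on chromosome 2, with 11.3 and 145.3 (highest Elk1 signal 45.8), and 15.6 and 185, and 1 near LOC665918 on chromosome Y, with 8.3 and 116.7. All 3 listed loci of chromosome Y were at 100 in pri-NPC alone, and the labels used here give no sex of the cells.

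Several of the loci of both antibodies lay in clusters. On chromosome 9 between 2999865 and 3038365, all 19 loci had more Gli2 signal in pri-NPC, with medians of 36 and 168.8, a median log2 difference of -2.18, and Elk1 medians of 46.9 and 350.1. The 4 loci on chromosome 2 between 98662085 and 98667465 reached 779.4 in ciNSLCs and 4586.8 in pri-NPC, a median log2 difference of -2.97. On chromosome 11 the 21 loci in and around Sfi1, a centrosome gene, between 3126945 and 3200085 differed less, with medians of 80.2 and 119.2 and a median log2 difference of -0.73, and 7 of them were shared. The shared Rpusd4 locus, 29108 bp from this gene of a pseudouridine synthase domain protein, had 318.6 and 2330.4 (7.32-fold lower, interval 5.90 to 9.17) and Elk1 signals of 559.4 and 3571.7. Dense blocks of this sort can hold repeated sequence, where the assignment of reads is uncertain, and no genome was used here to check it. The single loci of both antibodies, such as those in Aida and Chl1, were not checked for repeats either.

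**Figure D4:**
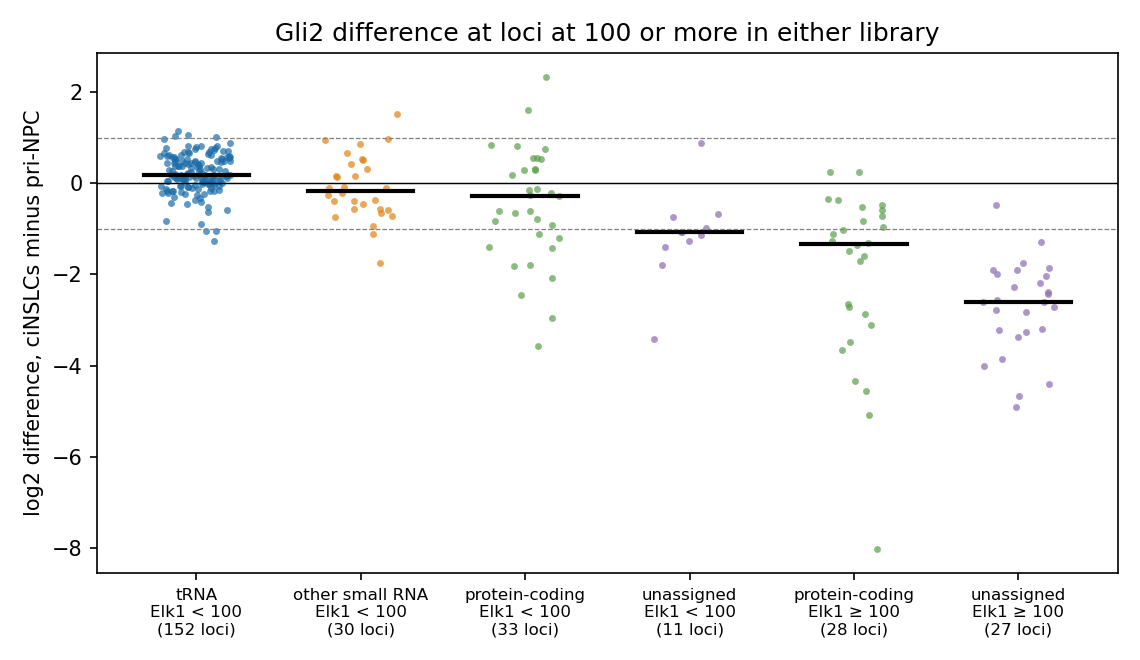
Log2 difference in Gli2 signal plus 1, ciNSLCs minus pri-NPC, at the 281 loci at 100 in either library, by locus type and by whether Elk1 reached 100 in any library. Points are loci, bars medians and dashed lines 2-fold; most loci with Elk1 at 100 lie below 0, and the 152 tRNA loci lie around it.

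Gli2 loci with Elk1 below 100 and no gene of the small RNA classes within 1 kb numbered 44, with 12 shared, 6 at 100 in ciNSLCs alone and 26 in pri-NPC alone. The 44 include the Zmat2 locus, since the annotation files Vaultrc5 as a long noncoding RNA. Of the 44, 29 stayed below 100 at days 0, 4 and 8, and 24 of the 29 were at 100 in pri-NPC alone and were listed through that library alone, which favours their higher signal there. At 16 of the 29 (55.2%) the signal was at least 2-fold lower in ciNSLCs beyond the interval, against 9.32% of all loci. That listing favours this direction, so the 2 shares are not of like loci. The ciNSLC signal exceeded all of days 0, 4 and 8 at 16 of these 24 (66.7%). It did so at 277 of all 1577 loci (17.6%) and at 209 of the 884 loci below 100 in every Gli2 library (23.6%). The 24 were chosen for days below 100, which favours this count, and the 1577 were not. The 884 had the same limit on the days but were all listed through Elk1. The shares are therefore not of like loci, and no conclusion is drawn from the gap between them.

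**Figure D5:**
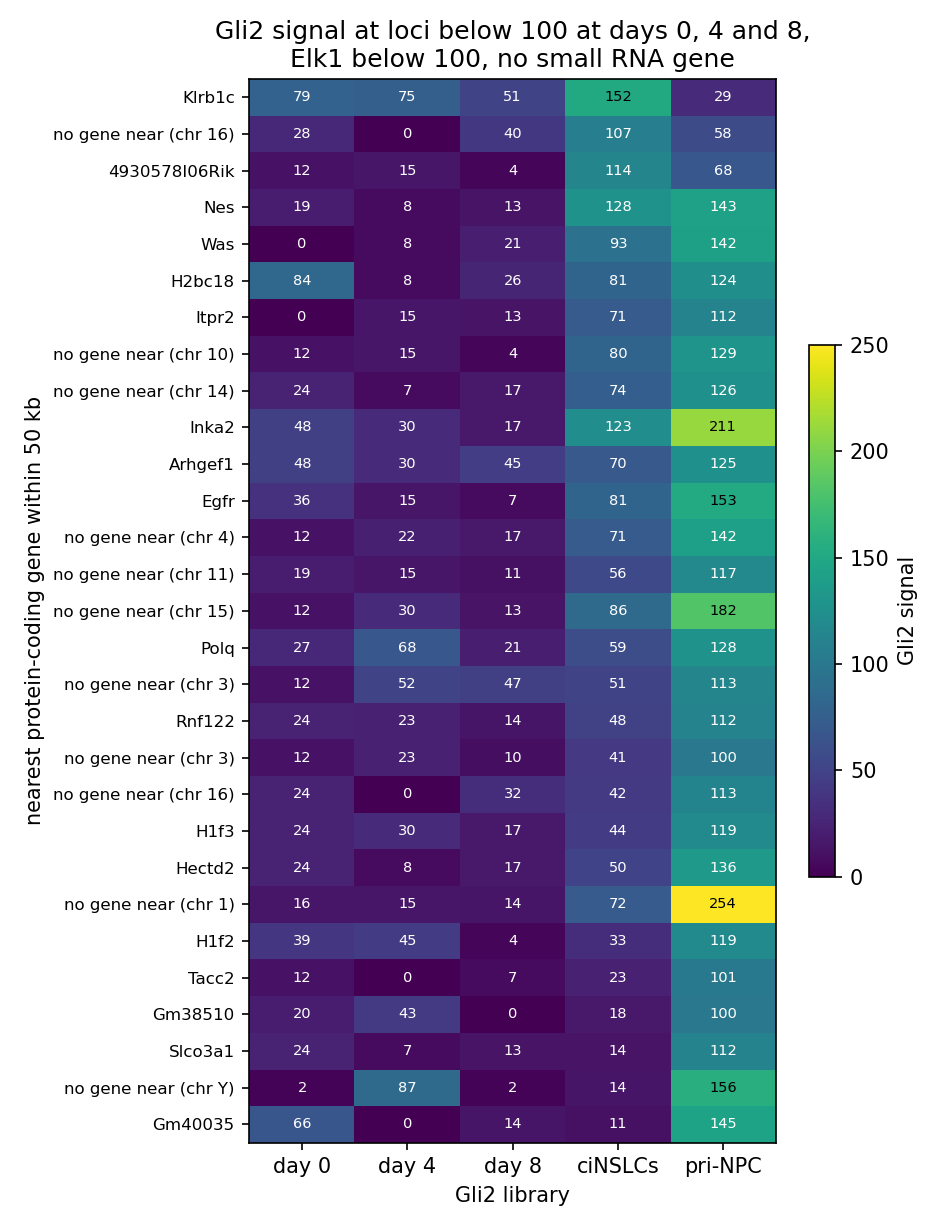
Gli2 signal in each of the 5 Gli2 libraries at the 29 loci below 100 at days 0, 4 and 8, with Elk1 below 100 and no small RNA gene, ordered by the difference between ciNSLCs and pri-NPC. Cells give the signal rounded to a whole number and colour stops at 250. Rows such as Nes, Was and Itpr2 are low on the days and higher in both cell types. Of these, Was (92.9) and Itpr2 (71.3) stay below 100 in ciNSLCs. The lowest rows are high in pri-NPC.

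Loci at the start of genes included those whose sequences are printed above. The linker histone genes H1f3 and H1f2 on chromosome 13 had 44.3 and 33 in ciNSLCs and 119.3 each in pri-NPC, 2.69-fold (interval 1.27 to 5.48) and 3.62-fold (interval 1.63 to 8.22) lower. H2bc18, a core histone H2B gene, had 80.9 and 124.5, within the interval (1.54-fold lower, 0.82 to 2.80). They were the 3 loci overlapping any of 67 annotated histone genes, a group chosen after its values were seen. At Polq the signals were 58.6 and 128.4 (2.19-fold lower, interval 1.12 to 4.16). The loci spanned bases -47 to 253 of H1f3, -82 to 238 of H1f2, -95 to 225 of H2bc18 and -241 to 79 of Polq from the annotated start. Elk1 signals at these 4 loci were 0 in pri-NPC and at most 2.8 in ciNSLCs.

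Of the 29 loci below 100 on the days, 13 lay in a protein-coding gene, and some others are named with them. They were picked after their values were seen. At Egfr, the epidermal growth factor receptor, the locus within the gene on chromosome 11 (16832065 to 16832445) had 80.9 in ciNSLCs and 153.2 in pri-NPC (1.89-fold lower, interval 1.06 to 3.36), and 35.8, 15 and 6.9 on the days. Both cell types were thus above each day, and pri-NPC above ciNSLCs. The locus 10574 bp from Was, an actin regulator of blood cells, overlapped Gm6787 and had 92.9 and 142.1. In Itpr2, a calcium channel of the endoplasmic reticulum, the signals were 71.3 and 112.1. Both differences were within the interval. Slco3a1, an organic anion transporter, had 13.6 and 112.1 (8.24-fold lower, interval 2.69 to 25.5), and Tacc2, a centrosome protein, had 23.3 and 101 (4.33-fold lower, interval 1.70 to 11.1). The highest day signal was 23.9 in Slco3a1, above that of ciNSLCs, and 11.9 in Tacc2, below it. The highest pri-NPC signal of the 29 had no gene assigned, at chromosome 1, 157039365 to 157039885, with 72 and 253.6 (3.52-fold lower, interval 2.08 to 6.04).

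The pathway lists held few loci. The lists were matched to the nearest protein-coding gene of each locus, within 50 kb. A listed gene with another gene nearer to the locus was not counted. The 20 Hedgehog pathway genes included the ligands Shh, Ihh and Dhh, the receptor Ptch1 and the targets Gli1 and Hhip. By this match 1 of the 20 had a locus, Smo, the signal transducer. Gli2 at Smo stood at 0 in ciNSLCs against 14.3 in pri-NPC, with an interval that held 1. Of 20 neural progenitor genes 5 had a locus, Nes and, below 100 in both libraries, Sox2 (26.3 and 24.8), Pax6 (5.3 and 12.4), Slc1a3 (21 and 17.6) and Msi2 (5.3 and 1.3). Of 12 fibroblast genes 3 did, Fap, Thbs1 and Zeb2, all at 14.3 or less in both. Of 11 immediate-early genes 6 did, with Egr1, Egr3, Fos, Junb and Spry4 between 0 and 23.5. None of the 8 neuronal genes was the nearest gene of a locus. No member of these lists differed by 2-fold beyond the interval. The list medians of the log2 difference were 0.08 for neural progenitor, 0.27 for fibroblast and 0.41 for immediate-early genes, beside -0.25 for all loci, and rest on 5, 3 and 6 loci.

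At the limit itself, n-TLaag4 (96.8 in ciNSLCs and 130.4 in pri-NPC) and a locus in Sfi1 (98.5 and 193.5) fell just short of being shared, while n-TTcgt2 (102.8 and 107.6) and Gm24019 (197.4 and 100.4) were just inside.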

How the data were processed

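Chromatin immunoprecipitation libraries for Elk1 and Gli2 were compared at 5 stages, with 1 library per group. A single deposited table gives the authors' signal of every locus in every library. How that signal was measured, scaled and corrected for background, and the peak caller, are not given in the sources used. The submitters' processing notes name mm10, Bowtie2, SAMtools, FastQC and CASAVA 1.8.4. Coordinates are as deposited, and whether they count from 0 or 1 is not stated. Members and lists were chosen with earlier results of these data known.

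Differences are log2 of the signal plus 1, which understates those of low signals. A unit and a background unit were fitted to signals below 40 (tolerance 0.06), which placed 94.3% of them on the grid in Gli2 ciNSLCs and 93.1% in Gli2 pri-NPC, and the method was tested on simulated data. Intervals of ratios are exact conditional binomial 95% intervals of counted units and ignore the background and the listing of loci. PCR reads without molecular identifiers are not independent molecules. Loci were typed with 49993 RefSeq genes of GRCm38.p6, first a nuclear tRNA gene within 1 kb, then another small RNA gene within 1 kb, then a protein-coding gene within 50 kb. The annotation used gives no strand or exons. Named loci are the 6 highest shared ones of each type by the lower signal, up to 8 largest differences in each direction among loci at 100, members of the lists and the polymerase III and spliceosomal RNA genes. Other named loci were chosen after their values were seen. Alternatives were median scaling, other pseudocounts, limits and windows, joined neighbours and loci listed elsewhere. Python 3.11.15, numpy 2.4.6, scipy 1.17.1 and pandas 2.3.3 were used. Some items are not reported here.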

Additional observations from a re-analysis of the deposited data

How the results depend on the processing

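No paired analysis was possible because each group had 1 library. Scaling both libraries to the same median moved the median log2 difference of tRNA loci from 0.12 to 0.50 and of unassigned loci from -0.53 to -0.17, and turned that of protein-coding loci from -0.28 to 0.032, since it shifts every locus by about the same amount. It gave 57 loci at 100 in ciNSLCs alone and 37 in pri-NPC alone, against 20 and 78. A limit of 150 left 108 shared loci, 42 in ciNSLCs alone and 45 in pri-NPC alone. Joining neighbours under 3 kb apart left 1404 loci, with 12 at 100 in ciNSLCs alone. Leaving out the 96 loci of both antibodies left 42 in pri-NPC alone. At 1.5-fold 357 loci were higher in ciNSLCs, at 3-fold 156 were higher and 300 lower, and 2-fold with the counting interval gave 23 and 147. The other 42 values stayed within 1.5 times the reported count or within the spread of loci, though the median of the small RNA loci other than tRNAs, -0.01, changed sign under median scaling (0.36) and over loci listed through another library (0.21). Among the 15 loci named by the difference rule, 44 of 45 values under scaling and pseudocounts kept their call, and n-TScga3 fell under 2-fold with a pseudocount of 5 (0.99). Precision is limited by the 17 counted units behind a signal of 100 in pri-NPC.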
